A study of Mus musculus with 2 samples.

Results

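The genes described here are 9 activating adaptors and proximal kinases of natural killer (NK) cells: Fcgr3, Fcer1g, Tyrobp, Hcst, Cd247, Sh2d1a, Sh2d1b1, Zap70 and Syk. They were chosen by name for their place in receptor signalling, and all 9 are among the 27998 genes of both count tables. The cells came from RMA-S tumors, a transplanted mouse lymphoma that shows little MHC class I at its surface, 2 weeks after injection under the skin. The sort took CD3ε-negative NK1.1-positive cells, which were sequenced with the 10x Chromium 3′ kit, which counts transcripts from their 3′ ends by unique molecular identifiers (UMIs). The KO library was from mice whose NK cells lack Hif1a, the oxygen-regulated subunit of a hypoxia-inducible transcription factor, and the WT library from wild-type mice. With 1 library per genotype, each difference below describes the 2 libraries and has no replicate check. The number of mice, their ages and the promoter that drives the deletion were not given in the sources used here.

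NK cells read their targets through receptors that have short tails and signal through adaptors held in the membrane. Fcer1g, Cd247 and Tyrobp carry ITAMs, tyrosine motifs that Src family kinases phosphorylate and that the tandem SH2 domains of Syk and Zap70 then bind, whereas Hcst carries a motif that recruits phosphatidylinositol 3-kinase and Grb2. Sh2d1a and Sh2d1b1 are small SH2 proteins that bind the tails of SLAM family receptors, and Fcgr3 is CD16, the low-affinity IgG receptor that arms NK cells against antibody-coated targets.

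NK-like cells, named from marker genes after clustering, were 2902 of 3067 kept KO cells and 3320 of 3555 kept WT cells. Their sums were 12335862 and 18108816 UMIs, with a median of 3744 UMIs per KO cell and 4421 per WT cell. Hif1a stood at 61.0 CPM (counts per 1000000 summed UMIs) in KO and 58.6 CPM in WT cells, but 3′ tags may come from outside the deleted exons, so this checks nothing. The defining NK markers Ncr1 and Klrb1c stood at 471 and 816 CPM in KO and at 430 and 743 CPM in WT NK-like cells, while Cd3e had 4 and 18 UMIs, Cd3d 250 and 609, and Cd3g 224 and 853. The libraries shared 19 barcode sequences among kept cells.

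Since the libraries differ in Hif1a, 200 bases before the RefSeq start of 4 members are shown with the core of the hypoxia response element, ACGTG or GCGTG on either strand, in capitals. RefSeq windows (GRCm38.p6, 250 bases before to 50 after the start) were at hand for 7 of the 9 members. The windows shown are those of the ITAM adaptors Fcer1g (chr1:171234350-171234549, minus strand) and Cd247 (chr1:165788481-165788680, plus strand), of the kinase Zap70 (chr1:36761598-36761797, plus strand, its first start) and of the adaptor Hcst (chr7:30419855-30420054, minus strand), each read 5′ to 3′ on the gene's strand.
Fcer1g: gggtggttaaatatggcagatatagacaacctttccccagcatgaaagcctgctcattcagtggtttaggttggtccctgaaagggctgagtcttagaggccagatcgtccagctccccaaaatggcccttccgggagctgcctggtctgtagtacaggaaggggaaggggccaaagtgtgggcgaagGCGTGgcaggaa
Cd247: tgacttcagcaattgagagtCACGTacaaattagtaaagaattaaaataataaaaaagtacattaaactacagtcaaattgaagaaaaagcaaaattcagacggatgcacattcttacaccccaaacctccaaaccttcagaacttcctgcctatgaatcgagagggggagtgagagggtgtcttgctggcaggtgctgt
Zap70: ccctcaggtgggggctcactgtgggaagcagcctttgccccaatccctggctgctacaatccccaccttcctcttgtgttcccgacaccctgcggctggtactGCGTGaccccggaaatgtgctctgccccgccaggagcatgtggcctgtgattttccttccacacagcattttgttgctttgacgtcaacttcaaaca
Hcst: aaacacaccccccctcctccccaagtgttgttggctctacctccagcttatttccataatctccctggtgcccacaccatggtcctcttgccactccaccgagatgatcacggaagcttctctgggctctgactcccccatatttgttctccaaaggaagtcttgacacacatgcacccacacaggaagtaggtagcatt

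Fcer1g, Cd247 and Zap70 each held 1 match in the windows shown, and Hcst none. Over all RefSeq windows of the 7 members, 5 members held a match in at least 1 window (Fcgr3, Fcer1g, Cd247, Zap70 and Syk), and Hcst and Sh2d1b1 did not. Of the 9 genes, 5 lie on chromosome 1, where Fcgr3 and Fcer1g are 164636 bases apart with 9 genes between them. The searched letters are common: 43.8% of 32851 promoter windows and 46.7% of 27025 genes held them. Matches on opposite strands can share letters, and a match describes the window, not a bound site.

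None of the 9 genes differed by 1.5-fold or more between KO and WT NK-like cells. The count was 0 higher and 0 lower, where 5.89% and 2.57% of the 7991 genes with at least 200 UMIs passed that fold upward and downward. The median log2 ratio of the 9 was 0.046, against 0.045 over those genes. For 4 of the 9 (Fcgr3, Fcer1g, Tyrobp and Hcst) the 95% counting interval of the ratio excluded 0, as it did for 50.8% of all genes tested. The sum of the 9 was 6298 CPM in KO and 6348 CPM in WT NK-like cells, and Fcer1g, Tyrobp and Hcst held 90.0% and 90.1% of it.

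**Figure D1:**
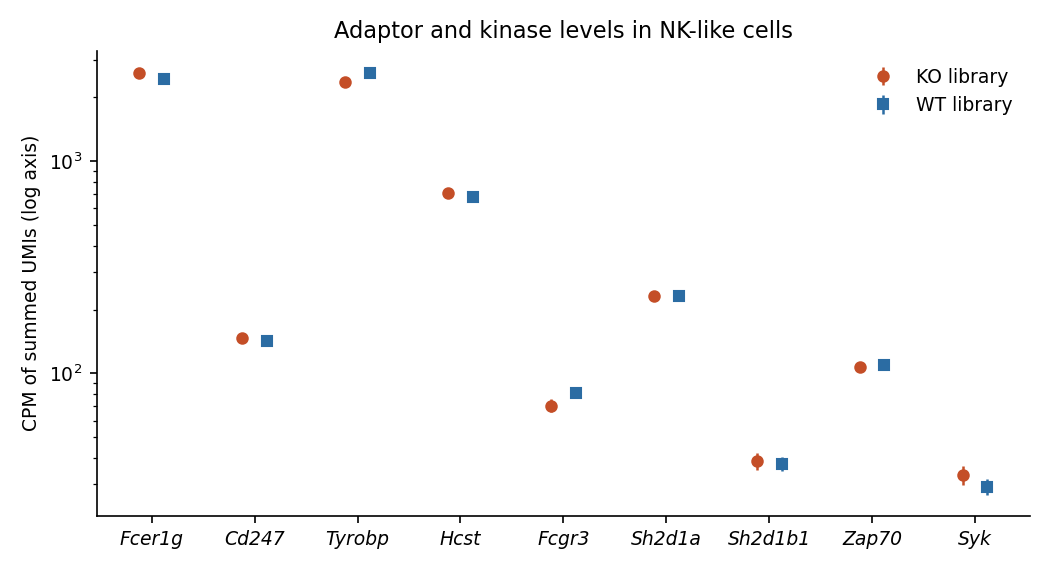
Level of each gene in NK-like cells as CPM of summed UMIs on a log axis, for the KO library (circles) and the WT library (squares), with exact 95% Poisson intervals that cover counting error only. Syk is lowest, at 33.1 and 29.3 CPM, Fcer1g (2596 CPM) is highest in KO and Tyrobp (2610 CPM) in WT cells, and the 2 libraries lie close together for each.

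Of the ITAM adaptors, Fcer1g, the Fc receptor γ chain that pairs with CD16 and NKp46 (chromosome 1, 171229572 to 171234365, minus strand), stood at 2596 CPM in KO and 2430 CPM in WT cells. The log2 ratio was 0.096 (95% counting interval 0.075 to 0.12), a small difference with Fcer1g higher in the KO library. Nearly every NK-like cell carried it: after each cell was thinned to 2500 UMIs, 99.2% of KO and 99.1% of WT cells had a Fcer1g UMI, with a median of 6 UMIs and a 5th to 95th percentile of 2 to 13 in both. Without cells that carried 3 or more S and G2M genes the ratio was -0.00039, so the direction was not kept.

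Tyrobp, also called DAP12, the adaptor of activating Ly49 receptors (chromosome 7, 30413760 to 30417585, plus strand), went the other way. It stood at 2367 CPM in KO and 2610 CPM in WT cells, a log2 ratio of -0.14 (-0.16 to -0.12). Under 20 alternatives its ratio stayed between -0.19 and -0.088. Thinned KO cells held a median of 5 Tyrobp UMIs, with a 5th to 95th percentile of 1 to 12, and thinned WT cells 6, with 2 to 13. Tyrobp ranked 82nd by level among all genes in KO and 73rd in WT NK-like cells, and Fcer1g 71st and 81st, so the order of the pair differed between the libraries.

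Cd247 (chromosome 1, 165788681 to 165877277, plus strand) is the ζ chain that T cells use in antigen receptors and NK cells pair with NKp46. It was sparser, at 147 CPM in KO and 142 CPM in WT cells. Its log2 ratio, 0.054, had an interval of -0.034 to 0.14 that includes 0. A Cd247 UMI was seen in 31.1% of thinned KO and 30.1% of thinned WT NK-like cells. The gene's last 1000 bases overlap Pou2f1 on the other strand, and the strand setting of the counting was not given in the sources used here.

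Hcst, also called DAP10, the partner of the receptor NKG2D (chromosome 7, 30417712 to 30419854, minus strand), stood at 705 CPM in KO and 678 CPM in WT cells. The log2 ratio was 0.057 (0.017 to 0.096), and it kept its sign under 14 of 20 alternatives, turning to -0.014 after thinning and to -0.018 as a mean over cells of their scaled counts. Hcst and Tyrobp are neighbours that face each other with their 3′ ends, 126 bases apart, so their counted tags lie close but on opposite strands. A Hcst UMI was seen in 79.6% of thinned KO and 80.6% of thinned WT NK-like cells, with a median of 2 in both.

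Fcgr3 (chromosome 1, 171051174 to 171064935, minus strand) was the member with the largest difference, at 70.6 CPM in KO and 80.8 CPM in WT cells. The log2 ratio was -0.19 (-0.32 to -0.072), and 51.4% of all genes had a smaller absolute ratio. Of thinned NK-like cells, 14.98% of KO and 17.9% of WT cells had a Fcgr3 UMI, against 3.12% and 8.33% of T-like cells. Before thinning these shares were 24.0% and 29.9% in NK-like cells. Thinning narrowed the gap in these shares for Fcgr3, and also for Hcst (89.3% and 94.2% before), Sh2d1a (54.0% and 61.3%) and Zap70 (34.0% and 40.5%). It did not narrow the difference in level of Fcgr3, whose log2 ratio was -0.26 after thinning. The Fcgr3 transcript shares a stretch of 509 aligned bases at 96.5% identity with that of the inhibitory receptor gene Fcgr2b. Their last 500 bases align over only 16.

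Sh2d1a, or SAP, which couples SLAM receptors to the kinase Fyn (chromosome X, 42502453 to 42529330, plus strand), stood at 232 CPM in KO and 231 CPM in WT cells, a log2 ratio of 0.0097 (-0.059 to 0.079) that turned to -0.038 when scaled by the median of ratios. Its relative Sh2d1b1, or EAT-2 (chromosome 1, 170277320 to 170286769, plus strand), stood at 38.5 and 37.3 CPM, a ratio of 0.046 (-0.13 to 0.22). Sh2d1a was thus the more frequent transcript in both libraries, with a UMI in 41.1% of KO and 42.0% of WT thinned cells against 8.25% and 8.54% for Sh2d1b1. The Sh2d1b1 counts are uncertain because the last 500 bases of its transcript align with those of the neighbouring copy Sh2d1b2 over 486 bases at 93.8% identity. Sh2d1b2 itself had 10 KO and 23 WT UMIs. The last 1000 bases of Sh2d1a overlap Tenm1 on the other strand.

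The kinase Zap70 (chromosome 1, 36761798 to 36782818, plus strand) stood at 108 CPM in KO and 110 CPM in WT cells, a log2 ratio of -0.030 (-0.13 to 0.071). Its relative Syk (chromosome 13, 52583173 to 52648792, plus strand) stood at 33.1 and 29.3 CPM, a ratio of 0.17 (-0.016 to 0.36). Both intervals include 0. A Zap70 UMI was seen in 23.3% of KO and 24.6% of WT thinned NK-like cells, and a Syk UMI in 8.17% and 7.03%.

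Myeloid cells also express Fcer1g, Tyrobp, Fcgr3 and Syk, and myeloid transcripts differed between the libraries. The 9 macrophage or monocyte markers summed to 55.2 CPM in KO and 4.75 CPM in WT NK-like cells, with 9 and 8 of them detected. Lyz2 had 509 and 20 UMIs and Csf1r 14 and 1. The summed level was 243 CPM in KO cells of sub-cluster 0, described below, and at most 11.5 CPM in every other sub-cluster of either library. The 5 neutrophil markers summed to 23.2 and 0.607 CPM. The 6 basophil or mast cell markers summed to 1.54 and 17.7 CPM, with Fcer1a and Ms4a2 at 0. Of their 321 WT UMIs, 262 lay in the cycling sub-cluster 6 (127 CPM), where only Cpa3 and Mcpt8 were detected. The 19 KO and 8 WT cells that carried 2 or more macrophage, neutrophil or basophil markers were then left out. The log2 ratios were 0.094 for Fcer1g, -0.14 for Tyrobp, -0.21 for Fcgr3 and 0.16 for Syk, close to those with these cells.

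NK-like cells fell into 7 sub-clusters, none of them drawn with a member among its variable genes. Number 0 (642 KO and 851 WT cells) was led by Hspa1a, Fos and Jun, number 1 (128 and 832) by Itgb2 and Klrg1, and number 2 (902 and 54) by Cxcr4 and Dhrs3. Number 3 (197 and 745) was led by Emb and Cd27, number 4 (798 and 90) by Gadd45b and Nr4a1, number 5 (217 and 618) by Hspa1a and Zeb2, and number 6 (18 and 130) by the cell cycle genes Hist1h2ap and Birc5. Different sub-clusters held most cells of the 2 libraries, so a state and a library cannot be fully told apart. Levels below are for groups of at least 50 cells of a library, which leaves out KO sub-cluster 6.

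Fcer1g, Tyrobp and Hcst were highest in sub-cluster 5 in both libraries. Fcer1g ranged from 2150 CPM in sub-cluster 2 to 3691 CPM in sub-cluster 5 of the KO library, a 1.72-fold span. In the WT library it ranged from 1671 CPM in the cycling sub-cluster 6 to 3225 CPM in sub-cluster 5. The order of the states was nearly the same in both libraries, and numbers 1 and 4 could not be ordered, with 2900 and 2901 CPM in KO cells and 2901 and 2816 CPM in WT cells.

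Tyrobp followed the same order, from 1949 CPM (sub-cluster 2) to 3357 CPM (sub-cluster 5) in the KO library and from 1827 CPM (sub-cluster 6) to 3274 CPM (sub-cluster 5) in the WT library. Hcst had a wider span in the WT library, 2.87-fold, from 292 CPM in sub-cluster 6 to 839 CPM in sub-cluster 5. That low value stood apart, since the next lowest WT sub-cluster, number 3, had 619 CPM. Cd247 was likewise lowest in WT sub-cluster 6, at 88.5 CPM, and highest in sub-cluster 4 of the WT library (220 CPM) and sub-cluster 5 of the KO library (200 CPM).

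**Figure D2:**
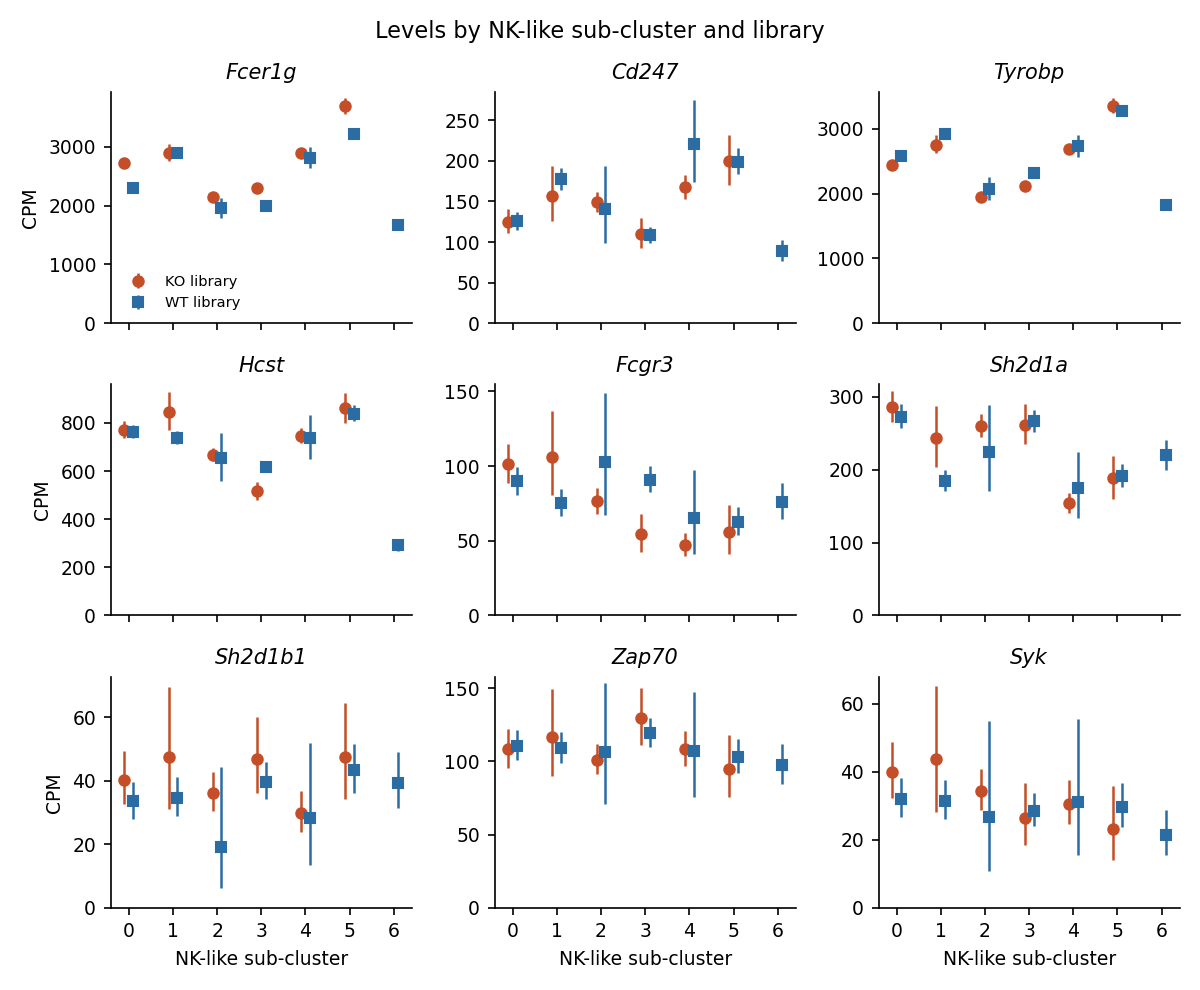
Level of each gene, in CPM, in the NK-like sub-clusters with at least 50 cells of a library, for the KO (circles) and the WT library (squares), with exact 95% Poisson intervals. Fcer1g, Tyrobp and Hcst peak in sub-cluster 5 in both libraries, whereas Zap70 varies little, from 95.1 to 130 CPM over the 13 groups.

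Sh2d1a was highest in sub-cluster 0 (286 KO and 273 WT CPM) and lowest in sub-cluster 4 (154 and 175 CPM) in both libraries. Over the 13 groups its log2 level correlated with those of Cd247, Tyrobp, Fcer1g and Hcst at r = -0.68, -0.52, -0.50 and -0.18, whereas Fcer1g correlated with Tyrobp at 0.92 and with Cd247 at 0.82. These correlations are across groups that share 2 libraries and are given as a description.

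Zap70 was the most even member, with spans of 1.37-fold in the KO and 1.23-fold in the WT library and its highest level in sub-cluster 3 in both (130 and 120 CPM). Syk lay between 23.2 and 43.8 CPM in KO and between 21.4 and 32.0 CPM in WT sub-clusters, with overlapping intervals throughout the KO states. Sh2d1b1 lay between 29.8 and 47.6 CPM in KO and between 19.0 and 43.2 CPM in WT sub-clusters, the lowest of them resting on 5 UMIs. At these depths the order of the states for both genes could not be read.

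Within sub-clusters Fcgr3 differed between the libraries in both directions. In sub-cluster 1 it stood at 106 CPM (KO) and 75.3 CPM (WT), a log2 ratio of 0.49 (0.058 to 0.90). In sub-cluster 3 it stood at 54.3 and 91.0 CPM, a ratio of -0.73 (-1.12 to -0.39). Its levels were 101.1 and 89.8 CPM in sub-cluster 0, 76.4 and 103 CPM in sub-cluster 2, 46.9 and 65.0 CPM in sub-cluster 4 and 55.7 and 62.8 CPM in sub-cluster 5, with intervals of the ratio that include 0 in each. The KO level thus varied more across states, from 46.9 to 106 CPM, than the WT level, from 62.8 to 103 CPM, but the 58 KO UMIs of sub-cluster 1 make that state's value imprecise.

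Hcst also went both ways, at 847 and 738 CPM in sub-cluster 1 (log2 ratio 0.20, 0.053 to 0.34) and at 516 and 619 CPM in sub-cluster 3 (-0.26, -0.38 to -0.14). Cd247 stood at 167 CPM in KO and 220 CPM in WT cells of sub-cluster 4, a ratio of -0.40 (-0.74 to -0.034) that rests on 78 WT UMIs. Sh2d1a stood at 243 and 185 CPM in sub-cluster 1 (0.39, 0.12 to 0.66). In the other 5 sub-clusters compared, the Sh2d1a interval included 0. For both kinases and Sh2d1b1 the interval included 0 in each of the 6, with ratios of -0.12 to 0.12 for Zap70, -0.34 to 0.47 for Syk and 0.077 to 0.89 for Sh2d1b1. The top Sh2d1b1 value, in sub-cluster 2, rests on 5 WT UMIs (-0.33 to 2.57).

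Fcer1g was higher in KO cells in 5 of the 6 sub-clusters with at least 50 cells of both libraries, with log2 ratios of 0.043 to 0.25, and level in sub-cluster 1 (2900 and 2901 CPM). Tyrobp was lower in KO cells in 5 of the 6, with ratios of -0.14 to -0.019, and at 0.036 in sub-cluster 5. Intervals excluded 0 in 4 of the 6 for Fcer1g and in 3 for Tyrobp. Among all genes with at least 200 UMIs in the sub-cluster, between 15.01% (number 2) and 33.1% (number 0) had such intervals. Both adaptors have high counts, so their intervals are narrow and can exclude 0 at small ratios, such as -0.084 for Tyrobp in sub-cluster 0. When KO sub-clusters were weighted to the WT make-up, the ratios were 0.14 for Fcer1g and -0.098 for Tyrobp.

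**Figure D3:**
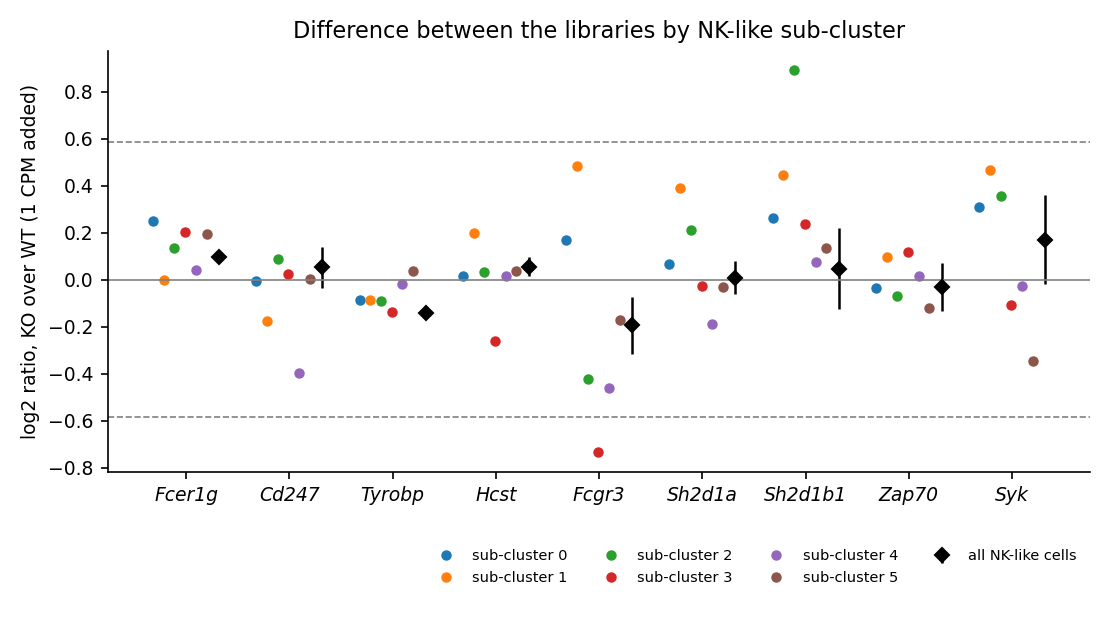
Log2 ratio of KO over WT, with 1 CPM added, for each gene in the 6 sub-clusters with at least 50 cells of both libraries (coloured points) and in all NK-like cells (black diamonds, with 95% counting intervals). Dashed lines mark 1.5-fold, and Fcgr3 spreads from -0.73 to 0.49 over the sub-clusters while Tyrobp stays between -0.14 and 0.036.

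The balance of Fcer1g to Tyrobp does not depend on how the libraries are scaled, since both genes are counted in the same cells; this pair was chosen after its values were seen. Fcer1g held 52.3% (exact Clopper-Pearson 95% interval 51.9% to 52.7%) of the Fcer1g and Tyrobp UMIs of KO NK-like cells, from 32030 and 29202 UMIs. In WT NK-like cells it held 48.2% (47.9% to 48.5%), from 44005 and 47266 UMIs. The share was higher in the KO library in each of 8 groups with at least 50 cells of both libraries, namely 6 sub-clusters, the T-like cells and a cluster led by Tmem176b. The intervals did not overlap in 4 of the 8. After thinning the KO share was higher in 7 of the 8, with 3 whose intervals did not overlap, and sub-cluster 4 turned, at 52.1% (51.1% to 53.1%) in KO and 52.6% (49.7% to 55.5%) in WT cells. These groups come from the same 2 libraries and are not replicates of a genotype.

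**Figure D4:**
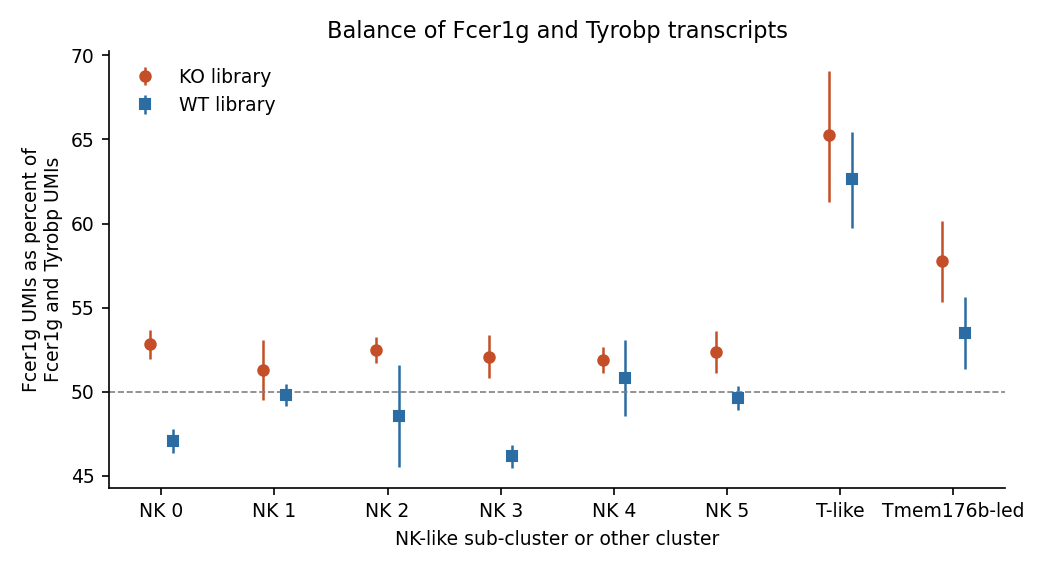
Fcer1g UMIs as a percentage of Fcer1g and Tyrobp UMIs in NK-like sub-clusters 0 to 5, T-like cells and the Tmem176b-led cluster, for the KO (circles) and WT library (squares), with exact 95% binomial intervals. At this full depth the KO point lies above the WT point in each of the 8 groups (7 of 8 after thinning, where sub-cluster 4 turns), with NK-like values of 51.3% to 52.8% against 46.2% to 50.8%.

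In percentage points the 4 pairs set side by side by role were closer, but a share does not show the fold. As UMIs of the first gene per UMI of the second, Fcer1g to Tyrobp stood at 1.10 (KO) and 0.931 (WT) in NK-like cells. Tyrobp to Hcst stood at 3.36 and 3.85 and Zap70 to Syk at 3.25 and 3.75, folds of similar size. Fcer1g to Cd247 (17.6 and 17.1) and Sh2d1a to Sh2d1b1 (6.03 and 6.19) differed less. Fcer1g held 94.6% of the Fcer1g and Cd247 UMIs in KO and 94.5% in WT NK-like cells. Sh2d1a held 85.8% and 86.1% of the UMIs of both SAP adaptors, and Zap70 76.5% (74.4% to 78.5%) and 78.9% (77.3% to 80.5%) of those of both kinases. Tyrobp held 77.1% (76.6% to 77.5%) of the Tyrobp and Hcst UMIs of KO cells and 79.4% (79.1% to 79.7%) of those of WT cells, a pair whose intervals do not overlap. In WT sub-cluster 6 that share was 86.2%, the highest of the WT sub-clusters.

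Shares of cells with a UMI include free RNA: a UMI of the globin gene Hbb-bs was seen in 37.3% of KO and 19.8% of WT thinned NK-like cells, and the part of free RNA in the members' shares was not tested. Of thinned cells, 97.9% (KO) and 98.4% (WT) of NK-like cells carried UMIs of both Fcer1g and Tyrobp. Both kinases were seen together in 1.88% and 1.83% of cells and neither in 70.4% and 70.2%. Zap70 was as frequent among cells with a Syk UMI in the KO library (23.0%) as among those without (23.3%), and the WT interval for the former, 20.4% to 32.2%, included the 24.5% of the latter. Sh2d1a was seen in 48.1% of KO cells with a Sh2d1b1 UMI and 40.5% of those without, with an interval of 41.1% to 55.1% for the first, and in 40.2% and 42.2% of WT cells.

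A further pair of clusters in the sort held these genes in other proportions. T-like cells, led by Cd3e, Cd3d and Cd3g, were 70 KO and 109 WT cells with medians of 4641.5 and 4726 UMIs. The cluster led by Tmem176b, Tmem176a and Rora was 89 and 120. In T-like cells the 10 T markers summed to 2082 CPM in KO and 2441 CPM in WT cells, with Cd4 and Cd8b1 at 0 in both. The 10 NK markers summed to 6414 and 5857 CPM there, below the 22997 and 22364 CPM of NK-like cells. The values below are thus those of a mixed class, not of plain T cells. T-like cells carried Hcst at the level of NK-like cells, 676 CPM in KO and 681 CPM in WT cells, and Cd247 at 146 and 158 CPM. Their Fcer1g was lower than in NK-like cells, at 1206 and 1317 CPM, and their Tyrobp lower still, at 642 and 786 CPM.

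The Tyrobp share of Tyrobp and Hcst UMIs was 48.7% (43.8% to 53.6%) in KO and 53.6% (50.04% to 57.1%) in WT T-like cells, below the 77.1% and 79.4% of NK-like cells. The intervals of T-like and NK-like cells do not overlap in either library. An unnamed cluster of 12 cells, 6 of each library, had 240 and 425 CPM of Fcer1g, below the T-like level. Sh2d1a stood at 234 and 176 CPM in T-like cells.

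Syk was nearly missing from T-like cells. Syk had 1 UMI in each library, and 0 of 64 KO and 0 of 108 WT thinned T-like cells carried one, which allows shares of cells with a UMI of up to 4.69% and 2.78% by the 3-count limit, or 5.60% and 3.36% as exact upper limits, against 8.17% and 7.03% of NK-like cells. Sh2d1b1 was lower than in NK-like cells, at 6.23 CPM in KO and 18.4 CPM in WT cells against 38.5 and 37.3 CPM. These T-like levels rest on 2 and 10 UMIs. Zap70 differed between the libraries in these cells, at 96.6 CPM in KO and 174 CPM in WT cells, a log2 ratio of -0.85 (-1.49 to -0.25) from 31 and 95 UMIs. The 5 erythroid markers summed to 340 CPM in KO and 4645 CPM in WT T-like cells, and their part in that difference was not tested. Of the 1382 Hbb-bs UMIs of WT T-like cells, 1333 lay in 1 cell. Before thinning, 64.3% of KO and 35.8% of WT T-like cells carried a Hbb-bs UMI.

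In the Tmem176b-led cluster Fcer1g stood at 1892 CPM in KO and 1678 CPM in WT cells and Tyrobp at 1384 and 1459 CPM. Cd247 was low there, at 31.3 and 44.6 CPM, below each NK-like sub-cluster. Sh2d1a was low as well, at 70.4 and 74.3 CPM. Syk stood at 9.77 CPM in KO and 25.3 CPM in WT cells, from 5 and 17 UMIs, against 33.1 and 29.3 CPM in NK-like cells. After thinning, a Cd247 UMI was seen in 3.53% of KO and 12.6% of WT cells of this cluster, and a Sh2d1a UMI in 18.8% and 13.4%. Zap70, at 106 and 75.8 CPM, and Hcst, at 584 and 629 CPM, lay nearer to the NK-like level.

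**Figure D5:**
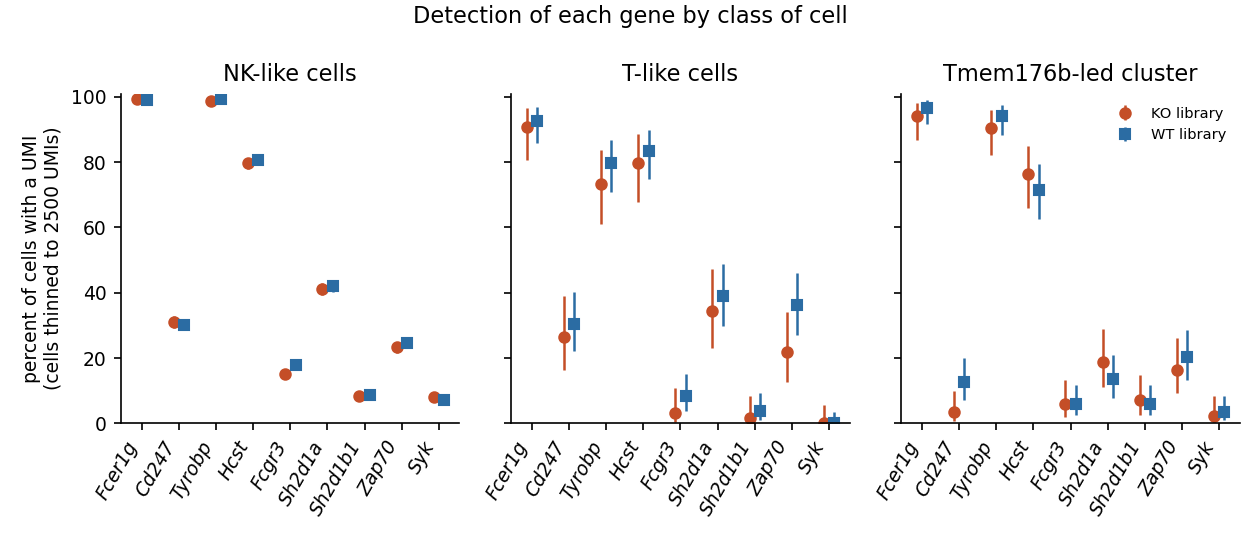
Percent of cells with at least 1 UMI of each gene after thinning to 2500 UMIs, in NK-like cells, T-like cells and the Tmem176b-led cluster, for the KO (circles) and WT library (squares), with exact 95% binomial intervals. A Fcer1g UMI is seen in at least 90.6% of cells of each class, and a Syk UMI in 7.03% (WT) and 8.17% (KO) of NK-like cells and in none of the T-like cells.

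Other genes of these pathways were read from lists chosen for their place in signalling. Genes listed as receptors of the adaptors stayed close to level. Of 5 measured for Tyrobp or Hcst and 5 for Fcer1g or Cd247, none passed 1.5-fold, with medians of -0.0034 and 0.13. The list for Tyrobp or Hcst includes Klra9 (Ly49I, log2 ratio -0.086), an inhibitory Ly49 receptor that does not use these adaptors. The activating Ly49 receptor gene Klra8 (Ly49H) stood at 837 CPM in KO and 894 CPM in WT cells, Klrc2 (NKG2C) at 293 and 270 CPM, and Klra4 at 1219 and 1222 CPM. Ncr1 (NKp46) and Klrb1c (NK1.1) both had a log2 ratio of 0.13. Klra genes are related in sequence, so their counts are uncertain.

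Of 6 measured SLAM family receptors none passed 1.5-fold, with a median of 0.053. Slamf7, the receptor through which EAT-2 signals, came nearest, at 64.3 CPM in KO and 94.2 CPM in WT cells (log2 ratio -0.54, -0.67 to -0.43). Cd48 stood at 249.1 and 279.3 CPM, Cd84 at 94.8 and 86.1 CPM, and Slamf6 at 15.2 and 13.0 CPM.

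Among Src family kinases, their regulators and scaffolds around the adaptors, the genes named here were higher in the pooled KO cells. The median ratio of all genes was 0.045. Of 8 measured Src family kinases and their regulators 1 was over 1.5-fold higher, where 5.89% of all genes passed, and none lower (median 0.21). The 1 was Yes1, at 10.8 and 3.70 CPM. Fyn, the kinase that SAP recruits, stood at 220 and 176 CPM (0.32, 0.25 to 0.40), and Csk and Ptprc both had ratios of 0.21. Of the downstream scaffolds, Sh3bp2 stood at 10.9 CPM in KO and 6.07 CPM in WT cells (0.75, 0.46 to 1.22), past 1.5-fold. The scaffold Lcp2 and the adaptor Grb2, which Hcst binds, both had ratios of 0.44. Ratios of list genes are pooled over sub-clusters whose shares differ between the libraries. Over the 6 sub-clusters with at least 50 cells of both libraries, Fyn ranged from -0.13 to 0.41 and Lcp2 from -0.74 to 0.53. Yes1 and Sh3bp2 also went both ways, whereas Grb2 and Csk stayed positive in each. Ptprc reached 0.35 in sub-cluster 0 but was close to level in sub-clusters 1 (0.022), 3 (0.022) and 4 (0.0030).

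Among 19 downstream effectors none passed 1.5-fold on the ratio with 1 CPM added (median 0.22). Pik3r5, a regulatory subunit of phosphatidylinositol 3-kinase, was at the threshold but for that addition, at 71.7 CPM in KO and 47.8 CPM in WT cells (0.58), and Was, the Wiskott-Aldrich actin regulator, was lower, at 68.6 and 88.4 CPM (-0.36). Prkcd and Sos1 had ratios of 0.38 and 0.46. Of 15 proximal inhibitors none passed 1.5-fold (median 0.082), with Ptpn22, a phosphatase that acts on Src family kinases and Zap70, at 548 and 413 CPM (0.41). Ubash3a, Cbl and Inpp5d had ratios of 0.48, 0.37 and 0.36. Among 7 Fc receptor genes of other cells only Fcgr2b reached 50 UMIs, at 13.1 and 8.78 CPM (0.52). Over the 6 sub-clusters compared, the Fcgr2b ratio ranged from -0.75 in number 1 to 0.96 in number 0. KO cells of number 0 held 243 CPM of macrophage or monocyte markers, whose part in the Fcgr2b ratio was not tested.

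For each member the 2 genes most like it over the 13 groups of at least 50 cells were found among 7430 others, by Pearson's r of log2(CPM + 10). Tyrobp ran with Rac2 (r = 0.96) and S1pr5 (0.95), and Fcer1g with Ahnak (0.95) and Atp6v0e (0.95). Hcst was nearest to Txk (0.96) and Spata13 (0.95), and Cd247 to Sdcbp (0.98) and D1Ertd622e (0.94). Sh2d1a ran with Ltb (0.93) and Ccr2 (0.91), and Sh2d1b1 with Man2b1 (0.96) and Yae1d1 (0.90). Syk was nearest to Vps13b (0.89) and Nol4l (0.87), Fcgr3 to Surf1 (0.86) and Rtcb (0.81), and Zap70, which varied least, to Snx30 (0.79) and Hemgn (0.78). A best match picked from so many genes over 13 groups is high for any gene, so these are neighbours in level only.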

How the data were processed

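The deposited tables held UMI counts per gene and barcode, whole numbers that the authors had not normalized, as seen in the values. The submitters' processing notes name Cell Ranger 2.0.2, Seurat and mm10 without a role. The annotation, cell calling and doublet removal were not given in the sources used here. Kept cells had 500 or more genes and 10% or fewer mitochondrial UMIs, and doublets were not called. Both libraries were clustered together (scanpy 1.11.5, counts per 10000, log1p, 2000 scaled variable genes seen in at least 3 cells, 30 components, 15 neighbours, Leiden resolution 0.8, then 0.6 within NK-like cells). A cluster was named where 3 of its 10 leading genes, taken among genes in at least 50% of its cells, were markers of 1 class, otherwise for the class whose markers were seen in the highest mean share of cells, which named most NK-like clusters. Other settings for variable genes, scaling and that 50% were tried first, and this one was kept since it separated T-like cells, before any ratio was computed. UMIs were summed per library and scaled to CPM, and ratios are log2(KO + 1) - log2(WT + 1) in CPM. No test was made. Intervals are exact 95% Poisson, conditional binomial or Clopper-Pearson intervals, cover counting error only and take UMIs as independent. NK-like cells too shallow to thin to 2500 UMIs were 406 KO and 90 WT cells. Named genes are all 9 members, the 2 genes most like each and in each list the 4 genes of 100 or more UMIs whose ratio was farthest from 0; list counts take genes with at least 50 UMIs. The count over the list of downstream scaffolds is not reported here. The members and lists were chosen with earlier results of these data known. Positions and overlaps are from GENCODE M21 on GRCm38, which may differ from the submitters' annotation. Sums and intervals were tested on simulated data.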

Additional observations from a re-analysis of the deposited data

Results flagged for a closer look

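A pair of members had counting intervals on both sides of 0 in different NK-like sub-clusters of the same libraries. The Fcgr3 log2 ratio of KO over WT was 0.49 in sub-cluster 1 and -0.73 in sub-cluster 3. The Hcst ratio was 0.20 in sub-cluster 1 and -0.26 in sub-cluster 3. Of all genes with at least 200 UMIs in the sub-cluster, 17.1% in number 1 and 24.5% in number 3 had intervals that excluded 0. How many of those genes had opposite directions in different sub-clusters was not counted. With 1 library per genotype the difference was not tested for Fcgr3 or Hcst. Sub-cluster 1 held 128 KO and 832 WT cells and sub-cluster 3 held 197 and 745.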

How the results depend on the processing

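The counts of members at least 1.5-fold higher or lower were 0 and 0 under 22 alternatives, a lower and a higher fold threshold included, and the median ratio stayed between -0.023 and 0.052. Of 180 member ratios under 20 alternatives, 148 stayed within the counting interval and 32 moved beyond it. Fcgr3, Tyrobp and Syk kept their sign under all 20, Fcer1g under 19, Sh2d1b1 and Zap70 under 18, Cd247 under 16, Hcst under 14 and Sh2d1a under 12. Sh2d1b1 reached 0.33 when the KO make-up was set to that of WT cells, 0.28 without sub-cluster 6, which has 18 KO cells. The cause was not tested. Of the alternatives, 6 were chosen after seeing the data (all kept cells, shared barcodes left out, myeloid-marked cells left out, that weighting without sub-cluster 6, leading genes in 25% of a cluster, clustering without scaling). After thinning, Fcer1g held 52.9% (KO) and 49.1% (WT) of Fcer1g and Tyrobp UMIs. Depth limits Syk, Sh2d1b1 and Fcgr3 within sub-clusters. No paired analysis was possible because each genotype has 1 library.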
